A study of Mus musculus with 4 samples.

Results

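T-box genes encode transcription factors that bind DNA through a shared domain, the T-box, and 6 of them were followed in single cells of the mouse pharyngeal apparatus and heart: Tbx1, Tbx2, Tbx3, Tbx5, Tbx18 and Tbx20. They were taken by symbol from the E8.5 gene tables and matched to the E9.5 tables by Ensembl ID, and they are 6 of the 17 T-box genes and 6 of the 27514 genes that all gene tables list. Some T-box factors activate and others repress transcription, and several of them are made in neighbouring or overlapping territories of the same embryo. Tbx1 is known as a regulator of the pharyngeal arches and of the second heart field, the mesoderm that adds cells to the growing heart. Tbx5 and Tbx20 promote the heart muscle programme, Tbx2 and Tbx3 repress chamber genes where the conduction system and cushions form, and Tbx18 is known from the sinus venosus, the epicardium and the somites.

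The cells came from 4 libraries, each of them the only library of its group, on the Swiss Webster strain. Ctrl embryos were Tbx1Cre/+;Rosa26-GFPflox/+ and cKO embryos were Tbx1Cre/flox;Rosa26-GFPflox/+, so that every embryo carried Tbx1Cre, a Cre knocked into Tbx1 that inactivates that copy, and controls kept 1 intact copy. GFP marks cells that have expressed Tbx1Cre and their descendants, and GFP-positive, DAPI-negative cells of pooled embryos were sorted, from the upper part of the body at E8.5 and from the pharyngeal apparatus with the heart at E9.5. The study's sample summary also lists the back at E9.5. It gives a slightly later somite range for cKO than for Ctrl at E8.5, and pools of different embryo numbers. Stage therefore cannot be told apart from the dissection and the library. Genotype cannot be told apart from the library or, at E8.5, from the somite range.

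The E8.5 libraries held 1434 Ctrl and 1090 cKO cells and the E9.5 libraries 5453 Ctrl and 6266 cKO cells, with median unique molecular identifiers (UMIs, counted transcript molecules) per cell of 15910.5 to 23984. Between 2 and 55 cell barcodes were shared by any 2 libraries. The cKO E9.5 gene table lists 31053 genes where the others list 27998 genes, so levels are given as UMIs per 1000000 UMIs of the shared genes (UPM). The 27514 shared genes are fewer than any table lists, so the gene list of that library is not just a longer one. The annotation behind each list is not named in the sources used here. The part of this difference in the cKO over Ctrl ratios at E9.5 was not tested. With 1 library a group no test between groups was possible: 95% intervals cover counting error only, and a ratio was called past the fold when it lay more than 2-fold from the median log2 ratio of all genes with at least 20 UMIs in the libraries compared.

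Cells were placed in 15 groups by marker genes that include no T-box gene. Of the genes set aside to check each group in the Ctrl E9.5 library, 5 of 5 were raised at least 1.5-fold in cardiomyocyte-like (CM) cells, 6 of 6 in endothelial-like cells, 4 of 4 in posterior second heart field-like (pSHF) cells, 4 of 4 in branchiomeric muscle-like (BrM) cells, 5 of 5 in multilineage progenitor-like (MLP) cells, 4 of 5 in mesenchyme-like cells and 2 of 3 in pharyngeal endoderm-like cells. At E8.5 the MLP and mesenchyme gates each had 3 of 5 check genes raised and the pSHF gate 3 of 4. The BrM gate had 1 of 4 and gives no named cells there. A gate on Tcf15, Meox1, Meox2 and Pax3, drawn for somitic mesoderm, had only 1 of 4 check genes raised at E9.5 and 2 of 4 at E8.5. It is called the Tcf15/Meox group. The gate for somatic mesoderm had 1 of 2 at E9.5. Check genes were read in the Ctrl libraries only, so the gates were not checked in the cKO libraries. Unassigned cells made up 24.0% to 38.6% of the libraries, and a gate of blood genes was passed by 0 cells of each E8.5 library, 1 Ctrl cell and 30 cKO cells at E9.5.

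On GRCm38.p6 the 6 genes lie on 4 chromosomes. Tbx1 (ENSMUSG00000009097) spans chr16:18580979-18590671, Tbx2 (ENSMUSG00000000093) chr11:85832615-85841948, Tbx18 (ENSMUSG00000032419) chr9:87702800-87731260 and Tbx20 (ENSMUSG00000031965) chr9:24720812-24774303. Tbx3 (ENSMUSG00000018604, chr5:119670534-119684724) and Tbx5 (ENSMUSG00000018263, chr5:119796514-119885220) are neighbours, 111.789 kb apart with 0 protein-coding genes between them. Annotated genes overlap Tbx1 (Gm35369), Tbx3 (Tbx3os1, 36 UMIs over the 4 libraries) and Tbx5 (Gm5563), and the sources used here do not state whether counting used strand.

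Tbx1, the gene targeted in this design, was not lower in the libraries labelled cKO. The E8.5 libraries counted 86.4 UPM (82.8 to 90.1, 2180 UMIs) for Ctrl and 118 UPM (114 to 123, 3044 UMIs) for cKO. The E9.5 libraries counted 104 UPM (101 to 106, 9756 UMIs) for Ctrl and 134 UPM (132 to 137, 14073 UMIs) for cKO. The library labelled cKO had the higher level at each stage and the intervals did not overlap, with a log2 ratio cKO over Ctrl of 0.45 (0.37 to 0.53) in the E8.5 pair and 0.38 (0.34 to 0.42) in the E9.5 pair, neither of them past the fold. UMIs of this assay are read near the 3′ end of a transcript, so these counts do not show whether a Tbx1 transcript holds the floxed part, and directions below are those of the libraries labelled cKO. Single cells showed the same order: with every cell thinned to 10000 UMIs, leaving out those with fewer, 5 or more Tbx1 UMIs were found in 1.15% of Ctrl and 3.18% of cKO cells at E8.5 and in 2.45% of Ctrl and 5.77% of cKO cells at E9.5.

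The other members were counted far less deeply, which sets what could be seen. Tbx18 went from 10.0 UPM at E8.5 to 34.9 UPM at E9.5 in the Ctrl libraries and from 11.7 to 23.7 UPM in the cKO libraries, on 253 to 3286 UMIs. Tbx3 went from 2.34 to 7.05 UPM in Ctrl and from 2.21 to 2.59 UPM in cKO, on 57 to 665 UMIs. Ctrl E9.5 stood apart from the other libraries for both genes. Tbx2 went from 0.991 to 2.84 UPM in Ctrl and from 1.48 to 2.30 UPM in cKO (25 to 268 UMIs). For Tbx5 the levels were 0.872 and 2.32 UPM in Ctrl and 1.67 and 1.82 UPM in cKO (22 to 219 UMIs). For Tbx20 they were 1.58 and 2.54 UPM in Ctrl and 1.55 and 1.76 UPM in cKO (40 to 239 UMIs). Each of these genes was at its highest in Ctrl E9.5, and the intervals of the E8.5 pair overlapped for all 5.

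**Figure D1:**
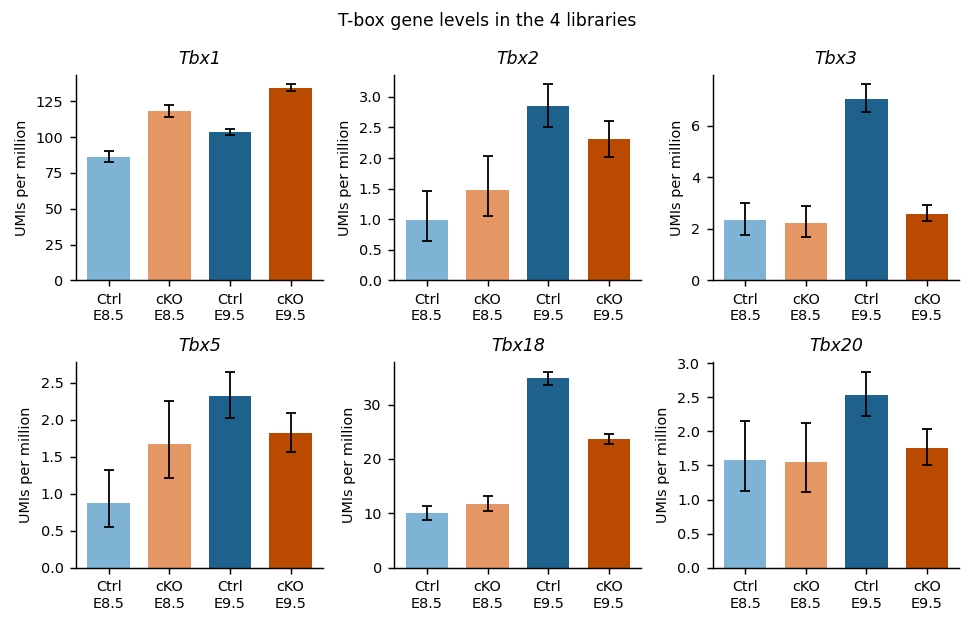
Level of each T-box gene in the 4 libraries, in UPM on an axis of its own for each gene, with 95% counting intervals. Tbx1 is higher in both cKO libraries (118 and 134 UPM) than in the Ctrl libraries (86.4 and 104 UPM), while the other genes are highest in Ctrl E9.5.

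Within the control genotype, most members had higher levels at E9.5 than at E8.5. The log2 ratio Ctrl E9.5 over Ctrl E8.5 was 1.80 (1.61 to 1.99) for Tbx18, 1.59 (1.21 to 2.0) for Tbx3, 1.52 (0.93 to 2.17) for Tbx2 and 1.41 (0.78 to 2.12) for Tbx5, all past the fold, against a median of 0.39 over all genes. Tbx20 (0.68, 0.19 to 1.20) and Tbx1 (0.26, 0.19 to 0.33) were not past it. Thus 4 of 6 members were higher, where 10.3% of all 14441 genes tested were higher and 6.11% lower by the same rule. In the cell groups, 10 of 35 tested pairs of a member and a group were higher and 1 lower, against 8.07% and 5.50% of all gene and group pairs.

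Tbx5 in pSHF cells and Tbx18 in mesodermal groups were among the higher pairs. Tbx5 counted 6.20 UPM (6 UMIs in 43 cells) at E8.5 and 60.6 UPM (116 UMIs in 98 cells) at E9.5 in pSHF cells, and the log2 ratio was 3.29 (2.12 to 4.77). Tbx18 went from 14.8 to 73.8 UPM in mesenchyme-like cells, from 14.3 to 58.4 UPM in the Tcf15/Meox group and from 5.12 to 24.1 UPM in MLP cells. All of these were past the fold and their intervals lay apart. Larger ratios rested on 1 UMI at E8.5, with Tbx2 at 3.67 (1.11 to 9.02) in unassigned cells and 3.60 (0.99 to 8.96) in pSHF cells and Tbx3 at 3.37 (0.84 to 8.70) in the BrM gate. The single lower pair was Tbx1 in CM cells, with 67.7 UPM (47 UMIs in 38 cells) at E8.5 and 26.2 UPM (61 UMIs in 144 cells) at E9.5, which gave -1.37 (-1.94 to -0.79) as log2 ratio.

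At E8.5 the cKO and Ctrl libraries differed little in these genes. None of the 6 members was past the fold, where 2.70% of 12762 genes were higher and 1.43% lower, and the median over all genes was 0.04. The log2 ratio cKO over Ctrl was 0.94 (0.17 to 1.75) for Tbx5, from 22 against 43 UMIs, 0.58 (-0.19 to 1.37) for Tbx2, 0.23 (-0.02 to 0.47) for Tbx18, -0.03 (-0.70 to 0.64) for Tbx20 and -0.08 (-0.63 to 0.47) for Tbx3. For the 4 genes other than Tbx1 and Tbx5 the interval held 0, so that no difference was detectable at this depth. Thinning the cells moved Tbx5 past the fold, at 1.08, while weighting each cell equally gave 0.08. Of 21 member and group pairs tested, 1 was higher, Tbx18 in MLP cells (6 UMIs in 62 cells against 24 UMIs in 50 cells, log2 ratio 1.91, 0.58 to 3.49) and 0 were lower, against 3.50% and 2.01% of all pairs. That call was lost with a gate gene more (0.78) and with gates read in thinned cells (0.88), and the thinned counts were too few to compare. The Tbx1 ratio closest to the fold was in pSHF cells, with 74.4 UPM in Ctrl and 150 UPM in cKO (log2 ratio 1.01, 0.62 to 1.41).

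At E9.5 Tbx3 was the only member past the fold in the cells as captured, with 7.05 UPM (6.53 to 7.61) in Ctrl and 2.59 UPM (2.29 to 2.92) in cKO. Its log2 ratio was -1.45 (-1.65 to -1.24), past the fold below a median of -0.26 over all genes. Ratios of -0.56 (-0.64 to -0.48) for Tbx18, -0.53 (-0.81 to -0.24) for Tbx20, -0.36 (-0.64 to -0.07) for Tbx5 and -0.30 (-0.56 to -0.05) for Tbx2 were below 0, but lay 0.05 to 0.30 below the median gene and so within the fold. Tbx1 lay 0.64 above the median gene. By this rule 0 of 6 members were higher and 1 of 6 lower, where 5.22% of 15130 genes were higher and 6.79% lower.

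The shares of cells that passed the gates differed between the E9.5 libraries. Several member ratios changed when the group shares of Ctrl were used for both. Pharyngeal endoderm-like cells were 5.72% of Ctrl and 0.750% of cKO cells, endothelial-like cells 7.15% and 1.58%, and CM cells 2.64% and 1.29%, while the Tcf15/Meox group was 5.68% and 11.0% and MLP cells 2.66% and 5.71%. With the cKO group levels averaged at the group shares of Ctrl UMIs, the Tbx3 log2 ratio was -0.77, no longer past the fold, and that of Tbx20 was 0.04. The Tbx18 ratio went the other way, to -0.92, and the Tbx5 ratio to -0.64. Tbx1 was then at 0.30 and Tbx2 at -0.04. These values have no intervals and rest in part on small cKO groups, with 16 Tbx3 UMIs in 47 pharyngeal endoderm-like cells. Whether the gates take the same kinds of cells in both genotypes was not tested. The part of the group shares in the ratios was not tested either.

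**Figure D2:**
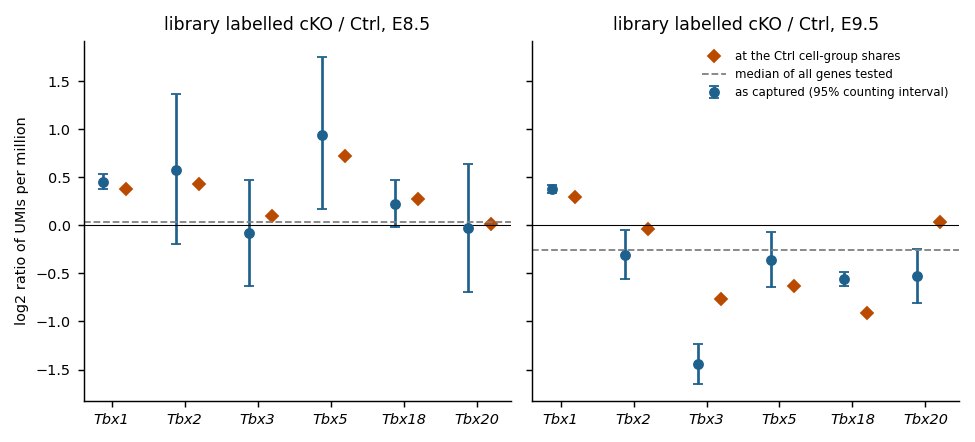
Log2 ratio of cKO over Ctrl for the 6 T-box genes at E8.5 and E9.5, as captured with 95% counting intervals and, as diamonds, with cKO groups averaged at the Ctrl cell-group shares. The dashed line is the median of all genes, and Tbx3 at E9.5 is at -1.45 as captured and at -0.77 at Ctrl shares.

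The UMIs of the Ctrl E9.5 library were spread over the cell groups differently for each member. CM cells held 69.5% of the Tbx20 UMIs and pSHF cells 53.0% of the Tbx5 UMIs, although these groups were 2.64% and 1.80% of the cells. Pharyngeal endoderm-like cells held 31.9% of the Tbx3 UMIs, mesenchyme-like cells 46.6% of the Tbx18 UMIs (22.0% of cells) and otic or surface ectoderm-like cells 19.8% of the Tbx2 UMIs. Tbx1 had 24.0% of its UMIs in mesenchyme-like cells as well, and 17.1% in BrM cells (6.60% of cells). The genomic neighbours Tbx3 and Tbx5 were both counted in CM cells (14.2 and 20.2 UPM) and in pSHF cells (13.6 and 60.6 UPM), while pharyngeal endoderm-like cells had 34.2 UPM of Tbx3 and 0 of the 219 Tbx5 UMIs.

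**Figure D3:**
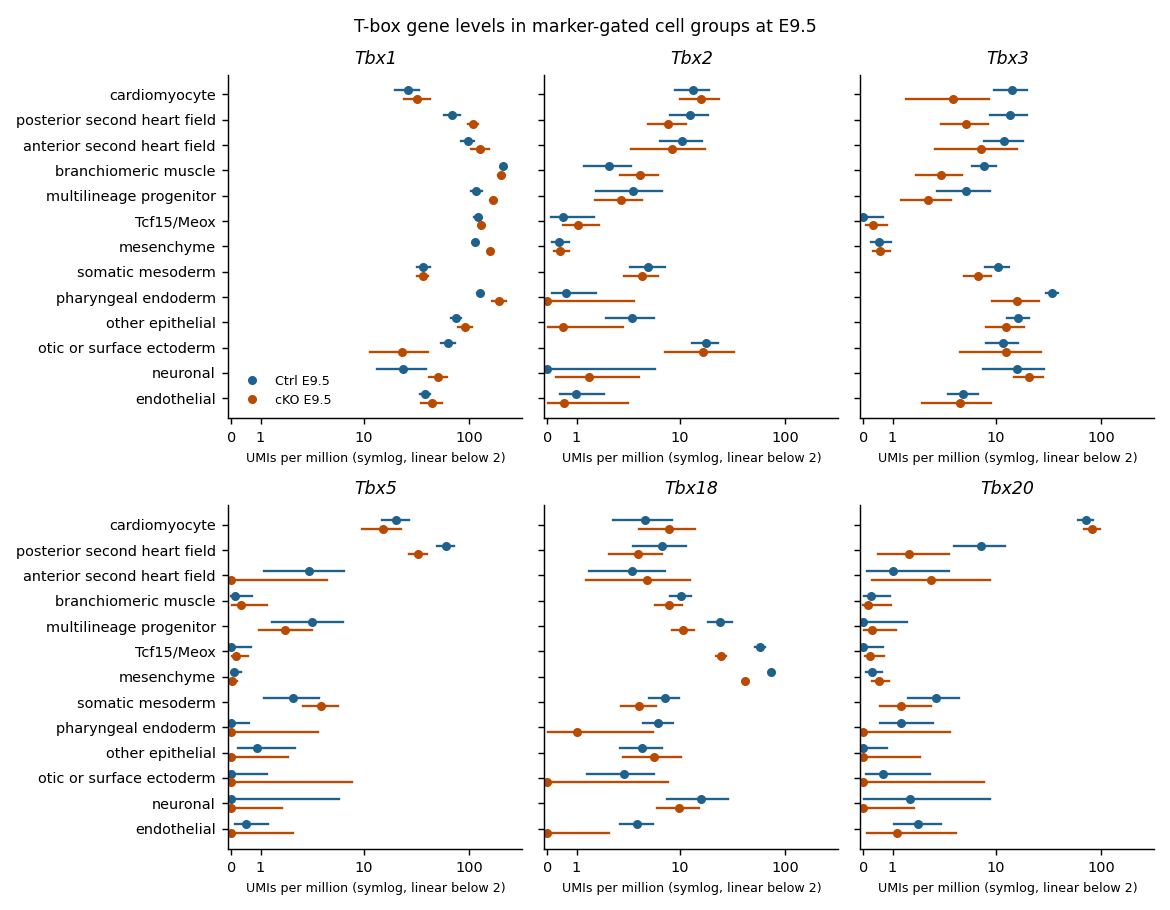
Level of each T-box gene in the marker-gated cell groups of Ctrl E9.5 and cKO E9.5, in UPM on an axis that is linear below 2 and logarithmic above, with 95% counting intervals. Tbx20 peaks in cardiomyocyte-like cells (71.3 UPM in Ctrl), Tbx5 in posterior second heart field-like cells (60.6 UPM), Tbx18 in mesenchyme-like cells (73.8 UPM) and Tbx1 in branchiomeric muscle-like cells (211 UPM).

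Over the cell groups at E9.5, 57 pairs of a member and a group could be compared between cKO and Ctrl. Past the fold were 5 higher and 6 lower pairs, against 4.41% and 4.22% of all gene and group pairs. The lower pairs were 3 of Tbx3, 2 of Tbx18 and 1 of Tbx1, and the higher pairs were 2 of Tbx20 and 1 each of Tbx1, Tbx2 and Tbx5.

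Tbx1 in cell groups differed by less than the fold in 12 of 14 groups. Its level was highest in BrM cells, the precursors of head muscle, with 211 UPM (201 to 221) in Ctrl and 201 UPM (189 to 212) in cKO, and these intervals overlapped. In Ctrl, pharyngeal endoderm-like cells came next (126 UPM), followed by the Tcf15/Meox group (120 UPM), MLP cells (117 UPM) and mesenchyme-like cells (113 UPM), and neighbours among these 4 did not differ beyond counting error. In cKO the levels of these groups were 192, 130, 169 and 159 UPM. Otic or surface ectoderm-like cells were the exception with a lower level, 63.4 UPM (190 UMIs in 142 cells) in Ctrl and 22.9 UPM (11 UMIs in 24 cells) in cKO, a log2 ratio of -1.47 (-2.49 to -0.60), in a group where 12.9% of all genes were past the fold. Neuronal-like cells had the higher pair, with 15 UMIs in 35 cells and 108 UMIs in 94 cells (log2 ratio 1.11, 0.32 to 1.99), which was 0.25 and no longer past the fold in filtered barcodes.

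Thinned to 10000 UMIs, 53.9% (52.5 to 55.3) of Ctrl E9.5 cells and 57.3% (56.0 to 58.6) of cKO E9.5 cells held a Tbx1 UMI (65.2% and 67.5% before thinning). The shares were 80.6% and 76.2% in BrM cells. Among groups of at least 50 thinned cells they were lowest in CM cells, at 22.5% and 17.9%. Median depths were 15370.5 and 17365 UMIs in CM cells against 20552 and 19995.5 UMIs in BrM cells. No group of at least 20 cells lacked Tbx1 UMIs to set a background, so the CM share is the lowest reference among groups of at least 50 thinned cells.

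Tbx3, a repressor, was lower past the fold in the library labelled cKO in CM, BrM and pSHF cells. CM cells had 14.2 UPM (33 UMIs in 144 cells) in Ctrl and 3.97 UPM (6 UMIs in 81 cells) in cKO, a log2 ratio of -1.84 (-3.38 to -0.56), where 7.36% of genes in these cells were past the fold. BrM cells had 7.85 UPM and 3.04 UPM (log2 ratio -1.37, -2.21 to -0.59), where the share of all genes was 8.18%. In pSHF cells the values were 13.6 UPM and 5.26 UPM (log2 ratio -1.37, -2.34 to -0.43), where it was 8.11%. The BrM call was lost with a gate gene more (-1.11), and the pSHF call in filtered barcodes (-1.21) and in thinned cells (-0.63). Pharyngeal endoderm-like cells, which lead for this gene, had 34.2 UPM and 16.0 UPM, a log2 ratio of -1.09 (-1.93 to -0.36) that was not past the fold, where 11.0% of genes were. Neuronal-like cells (15.8 and 20.8 UPM) and otic or surface ectoderm-like cells (11.7 and 12.5 UPM) had overlapping intervals, so the lower Tbx3 level was not seen in every group. The anterior second heart field gate had 24 and 6 UMIs, a log2 ratio of -0.72 (-2.31 to 0.60) within the fold. In the Tcf15/Meox group Tbx3 was at 0 UMIs in Ctrl and 4 UMIs in cKO.

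Tbx18 was lower in the Tcf15/Meox group, with 58.4 UPM (52.2 to 65.2, 322 UMIs) in Ctrl and 24.7 UPM (22.0 to 27.6, 308 UMIs) in cKO. The log2 ratio was -1.24 (-1.47 to -1.01), past the fold in a group where 8.24% of genes were, although thinning the cells (-1.07) or weighting them equally (-1.17) ended that call. Mesenchyme-like cells, the group with the highest level, had 73.8 UPM (1531 UMIs) and 41.9 UPM (1226 UMIs), and their intervals lay apart without passing the fold (log2 ratio -0.82, -0.93 to -0.71). MLP cells had 24.1 and 10.8 UPM (log2 ratio -1.16, -1.68 to -0.64), also short of it. In pharyngeal endoderm-like cells 39 UMIs stood against 1 UMI (log2 ratio -2.65, -7.99 to -0.09). In endothelial-like cells there were 32 UMIs in Ctrl and 0 in cKO, a log2 ratio of at most -1.19 with 3 UMIs as the floor. The cells with a Tbx18 UMI after thinning were 44.7% and 28.0% of mesenchyme-like cells and 37.1% and 19.9% of the Tcf15/Meox group (55.5%, 38.7%, 51.3% and 28.5% before thinning), against 1.45% of otic or surface ectoderm-like cells in Ctrl and 0 of 87 endothelial-like cells in cKO, which allows up to 3.45%.

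**Figure D4:**
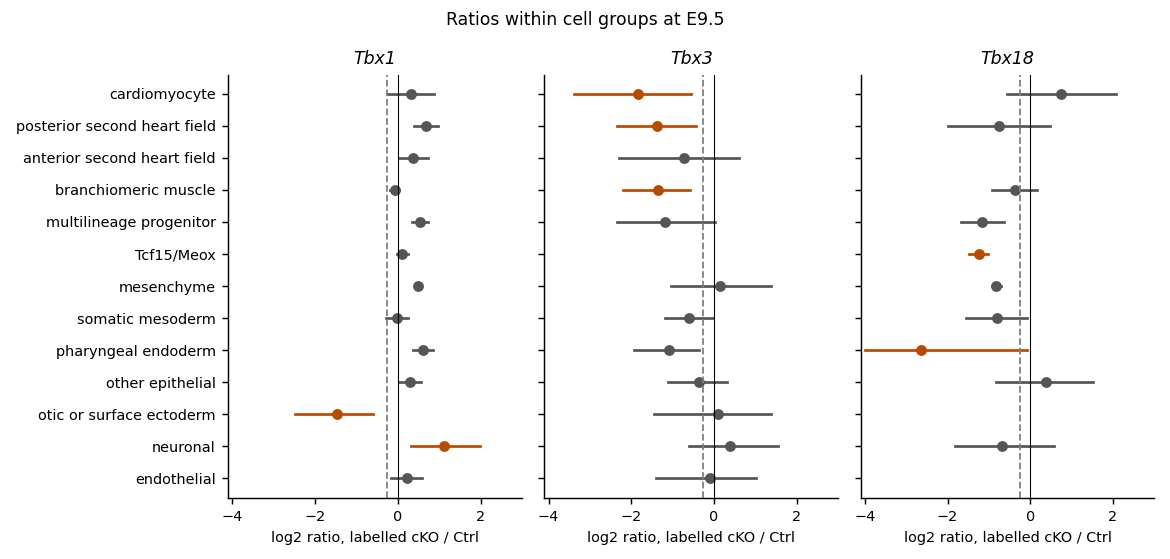
Log2 ratio of cKO E9.5 over Ctrl E9.5 in each cell group for Tbx1, Tbx3 and Tbx18, with 95% counting intervals cut at -4 and with pairs past the fold in orange. The dashed line is the median ratio of all genes in all cells, and Tbx18 lies at -0.82 in mesenchyme-like cells and -1.24 in the Tcf15/Meox group while Tbx1 lies at -0.07 in branchiomeric muscle-like cells.

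Tbx5 and Tbx20, which promote the heart muscle programme, were counted mainly in pSHF and CM cells. Tbx5 had 60.6 UPM (50.1 to 72.7) in Ctrl and 33.1 UPM (27.1 to 40.0) in cKO in pSHF cells, with separate intervals but a log2 ratio of -0.87 (-1.27 to -0.48) within the fold. In CM cells it had 20.2 UPM and 15.2 UPM with overlapping intervals. The thinned share of pSHF cells with a Tbx5 UMI was 37.9% (28.1 to 48.4) in Ctrl and 20.1% (14.2 to 27.2) in cKO, and it was 0 of 303 pharyngeal endoderm-like cells in Ctrl, which allows 0.990%. Cells in the somatic mesoderm gate had 12 and 28 Tbx5 UMIs, past the fold with an interval that held 0 (log2 ratio 0.88, -0.14 to 1.99).

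Tbx20 levels in CM cells did not differ beyond counting error, at 71.3 UPM (60.8 to 83.0) in Ctrl and 82.1 UPM (68.3 to 97.9) in cKO. A Tbx20 UMI was found in 41.9% and 44.9% of thinned CM cells, and in 0 of 134 MLP cells in Ctrl, which allows 2.24%. In pSHF cells Tbx20 had 14 UMIs in 98 cells and 5 UMIs in 160 cells, too few to compare by the rule of 20 UMIs. The higher pairs of Tbx20 rested on 6 and 16 UMIs in mesenchyme-like cells and on 8 and 20 UMIs in unassigned cells, with intervals that held 0.

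Tbx2, like Tbx3 a repressor, had its highest Ctrl levels, among groups of at least 20 cells, in otic or surface ectoderm-like cells (17.7 UPM in Ctrl, 16.7 UPM in cKO), CM cells (13.3 and 15.9 UPM) and pSHF cells (12.5 and 7.73 UPM), while in cKO the anterior second heart field gate (8.54 UPM, 7 UMIs in 39 cells) was above pSHF cells with an overlapping interval. Intervals overlapped in each of these. BrM cells had 17 and 25 UMIs, a pair past the fold (log2 ratio 0.97, 0.03 to 1.95) that was 0.61 and within it in filtered barcodes.

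Several members were counted together in some cells, and the pairs differed in direction. At E9.5 exactly 2 members were found in 19.5% of Ctrl and 13.9% of cKO thinned cells, and 3 or more in under 1% of either. Taken alone, Tbx1 was found in 53.9% and Tbx18 in 23.2% of thinned Ctrl cells, and the joint share to be had from such separate shares was not computed. Among mesenchyme-like cells of Ctrl a Tbx1 UMI was found in 356 of 504 cells with Tbx18 (70.6%, 66.4 to 74.6) and in 342 of 623 cells without it (54.9%, 50.9 to 58.9). The cKO library gave 74.6% (70.3 to 78.6) and 60.4% (57.5 to 63.3), so that in both libraries the share with Tbx1 was higher among cells with Tbx18, with separate intervals. In the Tcf15/Meox group the shares were 74.8% and 62.2% in Ctrl, with overlapping intervals, and 70.0% and 56.7% in cKO. At E8.5 the mesenchyme gate gave 38.5% with Tbx18 (5 of 13 cells) and 56.0% without it in Ctrl, and 70.6% (12 of 17 cells) and 66.4% in cKO, with overlapping intervals in both.

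The share of cells with Tbx1 was lower among pSHF cells with Tbx5 and among CM cells with Tbx20. The intervals were separate for Tbx5 in cKO pSHF cells only. In pSHF cells it was found in 7 of 32 cells with Tbx5 (21.9%, 9.28 to 40.0) and in 65 of 127 cells without it (51.2%, 42.2 to 60.1) in cKO, and in 11 of 36 (30.6%) and 33 of 59 (55.9%) in Ctrl, where the intervals overlapped. In CM cells it was found in 5.71% of cells with Tbx20 and 27.9% without it in cKO, and in 14.8% and 28.0% in Ctrl, with overlapping intervals in both libraries. Over all cells, any 1 of Tbx2, Tbx3, Tbx5 and Tbx20 was found in a higher share of the cells with another of them than of those without it, in both libraries. All cell groups are pooled there, and the part of the uneven spread of these genes over the groups was not tested. Tbx3 was found in 22.4% of Ctrl cells with Tbx2 and 4.85% without it (7.27% and 2.10% in cKO), and Tbx20 in 16.4% of Ctrl cells with Tbx5 and 1.33% without it (10.4% and 0.985% in cKO). Tbx3 with Tbx5 and Tbx20 with Tbx2 went the same way. Tbx3 was found in 13.7% of the 73 Ctrl cells with Tbx5 and 5.14% without it. Tbx20 was found in 6.90% of the 116 Ctrl cells with Tbx2 and 1.42% without it. Within CM cells of Ctrl, Tbx3 was found in 1 of 15 cells with Tbx2 (6.67%) and in 10.5% of those without it, with overlapping intervals. Cells of a library share their embryos and their free RNA, so these shares describe the libraries and were not tested.

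**Figure D5:**
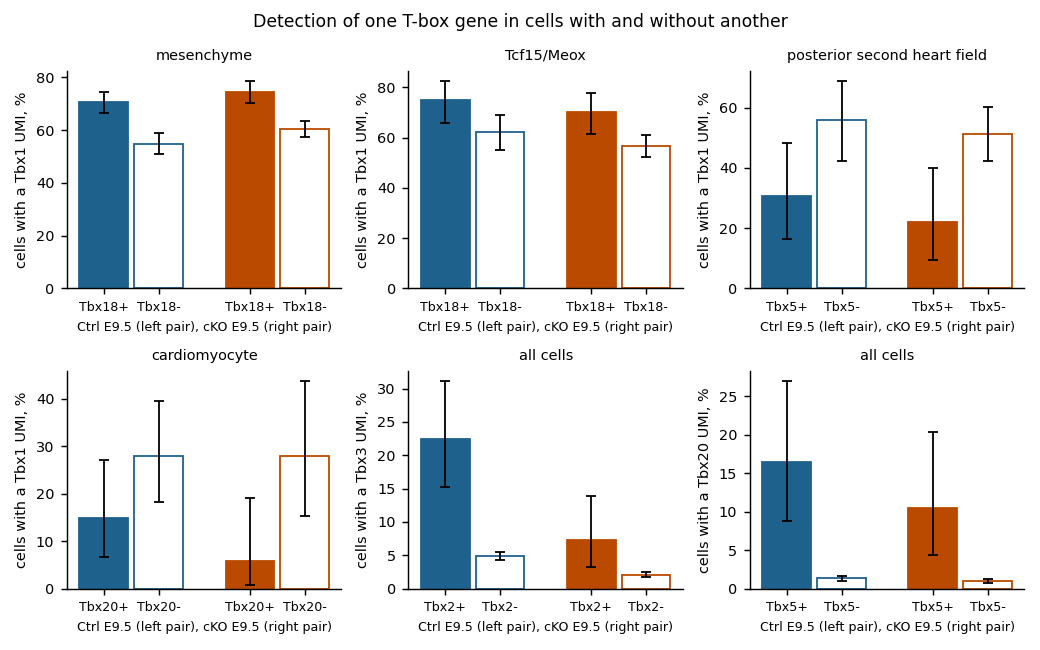
Percent of thinned E9.5 cells with a UMI of a T-box gene, among cells with and without a UMI of a partner gene, in Ctrl E9.5 and cKO E9.5, with 95% exact binomial intervals. The share with Tbx1 is higher in mesenchyme-like cells with Tbx18 (70.6% against 54.9% in Ctrl) and lower in posterior second heart field-like cells with Tbx5 (21.9% against 51.2% in cKO).

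Genes that varied most like each member were ranked by Pearson correlation of log2(UPM + 10) over 34 library and cell-group sums of at least 50 cells, among 12107 genes. Sums of a library share its depth and dissection, and the correlations are descriptions. Tbx20 was closest to Smpx (r = 0.99), Ryr2 (0.99), the calcium release channel of heart muscle, and Rrad (0.98). By Spearman correlation 1 of these 3 genes fell to rank 2456. CM sums came from the E9.5 libraries only (144 Ctrl and 81 cKO cells). The E8.5 CM gates held 38 and 28 cells, too few to enter. As Tbx20 was counted mainly in CM cells, its correlations here rest largely on those E9.5 sums. For Tbx5 the closest were Wnt2 (0.96) and Osr1 (0.93), both of which belong to the pSHF gate, and Apela (0.89), a ligand of the apelin receptor. Tbx18 went with Islr (0.93), Glt8d2 (0.89) and Pltp (0.87), and Tbx2 with Bmp4 (0.87), a secreted growth factor, Adssl1 (0.83) and Mfhas1 (0.78). Tbx3 was nearest to Uchl1 (0.85), Samd10 (0.84) and Hook1 (0.84), and Tbx1 to Smoc1 (0.75), Six2 (0.74) and Chrna6 (0.71). Between members the highest correlations were 0.62 for Tbx2 with Tbx5 and 0.61 for Tbx2 with Tbx20, the lowest was -0.54 for Tbx1 with Tbx20, and the genomic neighbours Tbx3 and Tbx5 had 0.21.

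Of the 11 other T-box genes listed, 2 had at least 100 UMIs over the 4 libraries. Mga, a large protein with both a T-box and a basic helix-loop-helix domain, was counted in all 4 libraries, at 28.2 and 30.6 UPM in the Ctrl libraries of E8.5 and E9.5 and 34.2 and 25.4 UPM in the cKO libraries. Tbx15 had 2 and 3 UMIs in the E8.5 libraries and 60 and 54 UMIs in Ctrl and cKO at E9.5. Neither was past the fold between cKO and Ctrl at E9.5 (log2 ratios -0.27 and -0.30). Of 4 of the 11 genes that could be tested at E9.5, 1 was lower, where 6.79% of all genes were lower. It was Tbx6, on 19 and 8 UMIs and named after its values were seen. Its log2 ratio was -1.40 (-2.80 to -0.14), and the interval held the median of -0.26 over all genes.

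The gene lists below were chosen with earlier results of these data known, so their counts beside the shares of all genes are descriptions only. Of 8 cardiac partner genes, transcription factors known to act with T-box proteins in heart cells, 0 were past the fold at either stage. Their median log2 ratio was 0.24 at E8.5, against 0.04 over all genes, and -0.73 at E9.5, against -0.26 over all genes, where Nkx2-5 was at -1.23, Gata4 at -1.03 and Isl1 at -0.95. Among 13 genes known to respond to T-box factors, 1 of 12 tested was higher at E8.5, Nppa, an atrial peptide of chamber muscle (14 against 59 UMIs), where 2.70% of all genes were higher. At E9.5, 5 of 13 were lower and 0 higher, where 6.79% of all genes were lower and 5.22% higher, with a median of -0.57. They were the growth factors Fgf8 (58.5 and 14.3 UPM, log2 ratio -2.03) and Fgf10 (-1.71), the lymphatic and endothelial receptor gene Flt4 (-2.11), the homeobox gene Gbx2 (-1.48) and the gap junction gene Gja5 (-2.57). Of 5511 Fgf8 UMIs in Ctrl, 2005 lay in pharyngeal endoderm-like cells and 1762 in other epithelial-like cells, which also held 346 and 193 of 1057 Gbx2 UMIs, and these groups were 5.72% and 4.55% of Ctrl and 0.750% and 1.53% of cKO cells. The anterior second heart field gate, which uses Fgf8 and Fgf10, held 229 Fgf8 UMIs and was 2.04% of Ctrl and 0.622% of cKO cells. Endothelial-like cells, with 603 Flt4 UMIs and 86 of 102 Gja5 UMIs in Ctrl, were 7.15% and 1.58%. The part of these shares in the ratios was not tested. Between the Ctrl stages 3 of the 13 response genes were higher at E9.5 (Gja5, Bmp2 and Bmp4), 2 were lower (Fgf10 and Gbx2), where 10.3% and 6.11% of all genes were, and 0 of the 8 cardiac partners were past the fold.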

How the data were processed

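Raw UMI counts per gene and cell, deposited as filtered matrices that the authors made with Cell Ranger 3.1.0 on mm10, were summed over cells of each of the 4 libraries (10x Genomics 3′ kit), with no filter on barcodes and no doublet caller; 0 to 5 cells per library passed 2 of the endothelial, cardiomyocyte and epithelial gates. Levels were UMIs per 1000000 UMIs (UPM) with exact Poisson intervals, ratios had conditional binomial intervals and shares of cells had Clopper-Pearson intervals, all at 95% and for counting error only; beside a share of 0 the limit given is 3 cells over the cells counted. No p-value was computed. A cell entered the first of the ordered gates in which it held enough of the gate genes (2 to 5, by gate). The members, lists and markers were chosen with earlier results of these data known, and the numbers of gate genes were set after seeing the counts. Named were the 6 members, other T-box genes with at least 100 UMIs, 2 lists (cardiac partners and T-box response genes) and the 3 genes most like each member among those with at least 200 UMIs. Group ratios needed 20 cells and 20 UMIs. For shares, cells were thinned to 10000 UMIs, which left 1299, 1006, 4898 and 5548 cells. Alternatives were TMM factors (edgeR 4.0.16), median-of-ratios factors, filtered barcodes (at least 1000 genes, under 10% mitochondrial UMIs, top 2% of UMIs removed), thinned cells, equal cell weights, Ctrl cell-group shares, a 1.5-fold limit, other gates, pseudocounts and depths. The calls and intervals were tested on simulated Poisson counts at the depth of the whole E9.5 libraries. The changed genes there had at least 200 expected UMIs and changed by more than 2-fold. Cell groups, and changed genes with fewer UMIs, were not simulated. Python 3.11.15 and R 4.3.3 were used, and gene positions came from RefSeq.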

Additional observations from a re-analysis of the deposited data

How the results depend on the processing

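With 1 library per group no replicate could be left out. No paired analysis was possible because each group holds a single library. The Tbx1 log2 ratio at E9.5 was 0.38 and became 0.63 with TMM factors, 0.63 with median-of-ratios factors and 0.30 at Ctrl cell-group shares; both scalings centre the median gene, which was at -0.26. At E8.5 it was 0.45 and became 0.36 with cells weighted equally. The count of members past the fold at E8.5 was 0, and 1 with thinned cells or a 1.5-fold limit. At E9.5 it was 1, and 0 at Ctrl cell-group shares and 2 with the 1.5-fold limit. Pairs of a member and a group past the fold at E8.5 numbered 1, against 0 in thinned cells and 2 with a gate gene more, and the original pair was kept in neither, nor with gates read in thinned cells, where 1 other pair was past it. At E9.5 they numbered 11, against 7 of 38 tested in thinned cells and 6 of 39 with a gate gene more, and 3 of the 11 were kept in each; 6 of the 11 were kept with cells weighted equally, where 11 were past it, 7 with gates read in thinned cells and 8 in filtered barcodes. No called value changed direction. Shares of cells with a UMI moved with the thinning depth, as their construction makes them. Members with under 300 UMIs in each library, Tbx2, Tbx5 and Tbx20, are limited by depth, and the genes most like a member changed with the settings: 0 of 3 were kept by Spearman correlation for Tbx5 and Tbx20, and over sums of at least 100 cells for Tbx1, Tbx3 and Tbx20.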
